A study of Mus musculus with 8 samples.

Results

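The genes described here encode 28 proteins of the small ribosomal subunit: Rpsa, Rps2, Rps3, Rps3a1, Rps4x, Rps6, Rps7, Rps9, Rps10, Rps12, Rps13, Rps14, Rps15, Rps15a, Rps16, Rps18, Rps19, Rps20, Rps21, Rps23, Rps24, Rps25, Rps26, Rps27, Rps27a, Rps28, Rps29 and Fau. They were taken by symbol from the 54532 gene rows of the deposited count table, with the row of the highest mean count where a symbol was repeated. The small subunit binds the messenger RNA, scans it for the start codon and checks the match between codon and transfer RNA, and each mature subunit carries its core proteins together with the small subunit ribosomal RNA. Messenger RNAs of ribosomal proteins begin with a run of pyrimidines, the TOP tract, through which the mTOR pathway and the protein LARP1 set their translation. Genes of this kind have many processed pseudogenes and retrotransposed copies in the mouse genome.

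The study compared brain RNA of wild-type (WT) mice with that of mice labelled as knockout of Nsun5 (Nsun5-KO), an RNA methyltransferase that places a methyl group on a cytosine of the large subunit ribosomal RNA. All mice were males of 3 months from the same litter, per the labels, and all were anaesthetised with 2% pentobarbital sodium at 50 mg/kg given intraperitoneally before the brain was taken. The labels name 5 mice per genotype and no strain or targeting allele, and 4 libraries of WT and 4 of Nsun5-KO were analysed. They do not say that each library is a separate mouse, so p-values measure the spread between these libraries.

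Libraries held 15642086 to 17829523 counts, and the 28 members took 0.391% to 0.501% of them. Nsun5 itself had 82 to 109 counts in WT and 83 to 124 under the knockout label, a log2 fold change of 0.13 (SE 0.15, edgeR adjusted p = 0.817). The RNA of the targeted gene was therefore no lower under that label than in WT, and where its deletion lies was not given in the sources used here, so each direction below refers to libraries by their label. The first principal component, with 25.7% of the variance, set WT 1 and WT 2 (-29.7 and -36.0) apart from the other 6 libraries (1.75 to 23.8). All 8 oligodendrocyte markers had lower values in the libraries labelled Nsun5-KO (summed CPM, counts scaled to library size, of 4577 to 6292, against 7010 to 7654 in WT), and the 8 neuronal markers summed to 7662 to 8163 against 6777 to 7004. Ependymal markers (10.7 to 20.9 against 23.4 to 37.8) and hypothalamic markers (14.2 to 23.0 against 30.5 to 143) were also lower, while summed astrocyte, microglial, endothelial, choroid plexus, blood and cerebellar markers overlapped between genotypes. No marker of these lists was at 0 in every library.

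The windows around the annotated start sites are shown for the members described in full, 7 with a pyrimidine tract and then Rps15 and Rps13 without one. RefSeq promoter entries of the GRCm38.p6 build were matched by symbol for 24 of 28 members; Rps14, Rps20, Rps27a and Rps29 had none. Each line gives 30 bases on the transcript strand with the annotated start in the middle, and capitals mark a C followed by at least 4 bases that are C or T, in the first such tract, where it begins within 10 bases of that start.
Rps6, chr4:86857353-86857382, minus strand: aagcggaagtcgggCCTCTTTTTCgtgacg
Rps23, chr13:90923107-90923136, plus strand: gccttcggctgggcggggCTTCCCgcaatg
Rps21, chr2:180257364-180257393, plus strand: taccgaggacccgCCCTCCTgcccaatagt
Fau, chr19:6057932-6057961, plus strand: tgcgcgCCCCCacttcttcctctttcttga
Rps26, chr10:128626492-128626521, minus strand: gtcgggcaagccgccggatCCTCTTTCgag
Rps27, chr3:90213634-90213663, minus strand: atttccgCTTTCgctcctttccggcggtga
Rps10, chr17:27635230-27635259, minus strand: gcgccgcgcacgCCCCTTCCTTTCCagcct
Rps15, chr10:80292416-80292445, plus strand: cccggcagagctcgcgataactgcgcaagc
Rps13, chr7:116334176-116334205, minus strand: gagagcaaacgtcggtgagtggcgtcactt

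Such a tract was found for 15 of the 24 member genes (62.5%), for 58.8% of large subunit genes and for 34.4% of all genes in the RefSeq table. The windows of Rps15 and Rps13 hold no tract by this rule, which says only that these letters are not near the annotated start. The hexamer CGGAAG, searched on both strands (CTTCCG on the other) over 250 bases before and 50 after the start, occurred for 75.0% of member genes, against 64.7% of large subunit genes and 18.8% of all genes. A CTTCC tract can be part of that hexamer on the opposite strand, as in the Rps7 and Rps18 windows.

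Levels among members, compared per length as the deposited FPKM (fragments scaled to gene length and library size), ran from 381 for Rps15 to 0.740 for Rps10, with a median of 81.1. The library size in this FPKM was 0.981 to 1.02 times the summed counts of the library. The gene length used ran from 630 bases for Rps15 to 6270 for Rps15a, so the order and shares also depend on that annotated length. Rps24 had mean levels of 258 and 252 CPM in WT and Nsun5-KO, and Rps15 had 243 and 241 CPM. Over 6256 bases, however, the FPKM of Rps24 was 40.4. Rps15, which lies in the head of the subunit near the decoding site, gave 12.7% of the summed member FPKM. Rps3a1 (313), Rps29 (221), Rps14 (195) and Fau (188) came next in the order. The ranges of the 8 libraries overlapped for Rps29 (158 to 256), Rps14 (167 to 214) and Fau (149 to 221), so the order of these neighbours was not separated by their spread. The range of Rps3a1 was 282 to 344 and that of Rps15 323 to 428, which also overlapped. At the low end Rps15a (24.5), Rps28 (25.0), Rps13 (26.9) and Rps19 (27.5) lay close together, and Rps10 stood far below all of them.

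**Figure D1:**
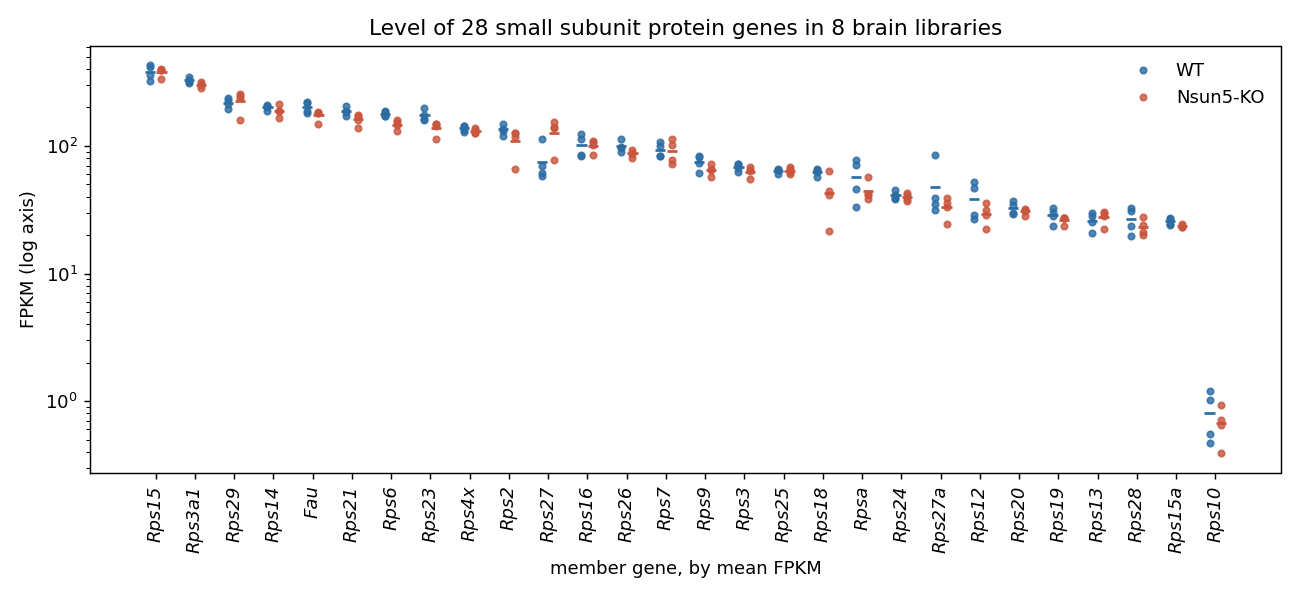
FPKM (log axis) of the 28 members, ordered by mean level, with each of the 4 WT (blue) and 4 Nsun5-KO (red) libraries as a point and a short line at each group's mean. Rps15 is highest at a mean of 381 and Rps10 lowest at 0.740, and the 2 groups overlap for all members but Rps6 and Rps23.

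All 28 members passed the filter on low counts. In the libraries labelled Nsun5-KO 24 of 28 members had a lower fitted level than in WT, where 51.4% of the 16062 genes tested did so, and 4 (Rps27, Rps13, Rps29 and Rps25) had a higher one. The median log2 fold change of the members was -0.13, against -0.005 over all genes tested, and single members ran from -0.54 (Rps18) to 0.75 (Rps27). No member was called by edgeR at an adjusted p below 0.05 (smallest 0.313, for Rps6), and the edgeR fit called 0.0% of all genes. At an unadjusted edgeR p below 0.05, 5 members were lower (Rps6, Rps23, Rps21, Fau and Rps26; 17.9% of members, background 5.05%) and 1 was higher (Rps27; background 5.3%). The groups did not overlap, with the libraries labelled Nsun5-KO lower, for 2 members, Rps6 and Rps23 (7.14% of members, background 2.71%), and for none in the higher direction (background 2.99%). DESeq2 called 1 member, Rps6 (DESeq2 adjusted p = 0.044), among the 0.694% of genes it called.

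The member values lay beside differences in cell type markers. In brain tissue fewer cells of a type and less RNA per cell cannot be told apart. The libraries Nsun5-KO 1 and Nsun5-KO 3 had the lowest oligodendrocyte sums (4732 and 4577 CPM), and their summed member CPM was 4476 and 3995. Nsun5-KO 2 and Nsun5-KO 4, with oligodendrocyte sums of 6292 and 6114 CPM, had 4663 and 4455 CPM of members, against 4593 to 4989 in WT. Without Nsun5-KO 1 and 3 the members below WT numbered 21, with a median log2 fold change of -0.09, and without WT 1 and WT 2 they numbered 23, with a median of -0.15. The 13 genes of the mitochondrial genome, a measure that also moves with RNA quality, were lower in 13 of 13 cases (51.4% of all genes). Their median log2 fold change was -0.20, and 4 were lower at an unadjusted edgeR p below 0.05 (background 5.05%). All mitochondrial rows together took 5.52% to 6.23% of counts under the Nsun5-KO label against 5.93% to 7.68% in WT. WT 1 and WT 2 held 7.27% and 7.68%, while WT 3 and WT 4, at 5.97% and 5.93%, lay within the Nsun5-KO range. The part of these markers and of the mitochondrial genes in the member values was not tested.

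**Figure D2:**
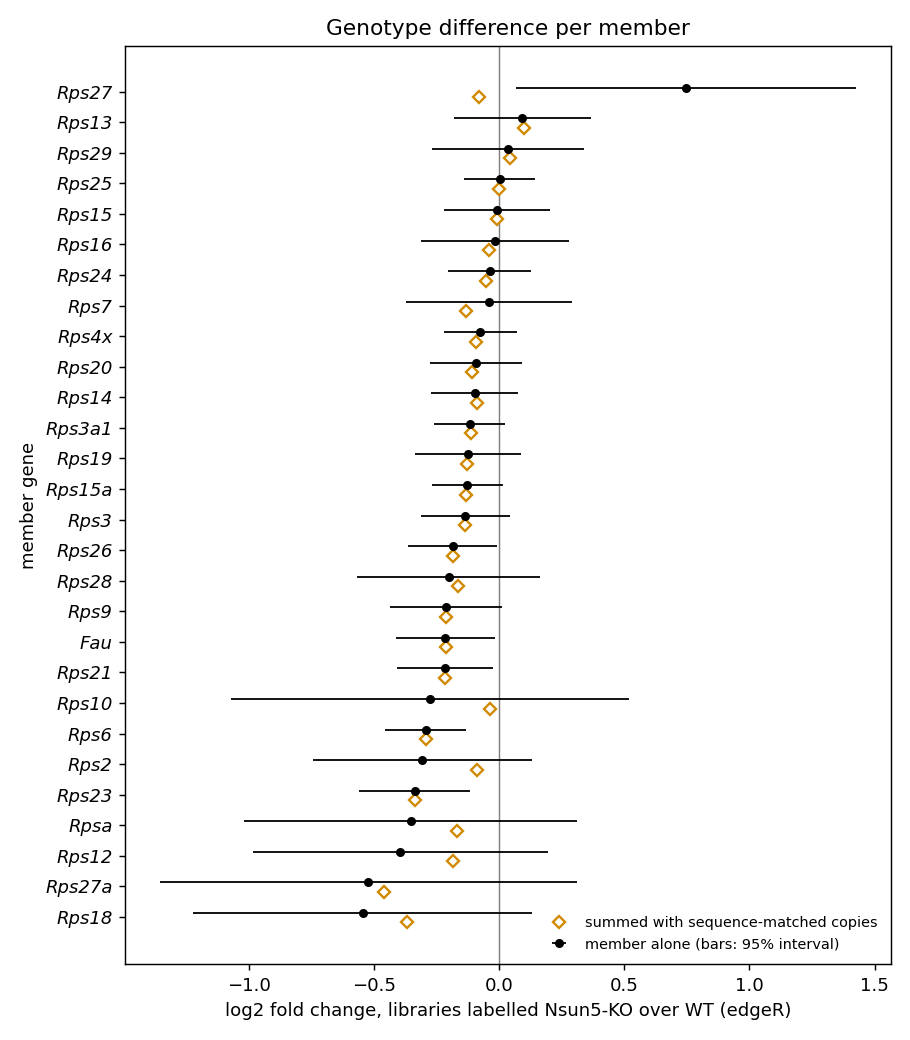
Log2 fold change of each member, libraries labelled Nsun5-KO over WT (x axis), with black points and 95% intervals for the member's own row and open diamonds for the member summed with its sequence-matched copies. Of the 28 intervals 22 include 0, and Rps27 moves from 0.75 alone to -0.08 when summed.

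Rps6 and Rps23 were the members whose libraries separated by genotype. Rps6, the small subunit protein phosphorylated by S6 kinase, is a protein-coding gene at chr4:86854660-86857412 (minus strand, mm10). Its level was 298, 301, 276 and 274 CPM in WT 1 to 4 and 231, 244, 209 and 253 CPM in Nsun5-KO 1 to 4. Every library labelled Nsun5-KO was below every WT library, with group means of 287 ± 14.1 and 235 ± 19.1 CPM (SD over 4 libraries each). The log2 fold change was -0.29 (SE 0.07, 95% interval -0.45 to -0.13) with an edgeR adjusted p of 0.313, and the two-sided exact permutation test of CPM gave p = 0.0286, the smallest that 70 labelings allow. Every member whose groups do not overlap gets this permutation p, so it restates the separation. Permutation p-values here and below are unadjusted.

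Rps23 lies at the decoding centre, where it takes part in checking codon and anticodon (chr13:90922958-90924950, plus strand). WT 1 to 4 had 204, 256, 225 and 207 CPM and Nsun5-KO 1 to 4 had 191, 188, 144 and 183 CPM. The groups did not overlap, though WT 1 and Nsun5-KO 1 differed by little, and Nsun5-KO 3 was the lowest library. Rps23 had a log2 fold change of -0.34 (SE 0.10, 95% interval -0.56 to -0.11), with an edgeR adjusted p of 0.337 and an exact permutation p of 0.0286.

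Rps26 lies near the exit of the messenger RNA channel and is delivered to the subunit by the chaperone Tsr2 (chr10:128624534-128626747, minus strand). Its level was 152, 176, 139 and 151 CPM in WT 1 to 4 and 135, 137, 126 and 145 CPM in Nsun5-KO 1 to 4. Only Nsun5-KO 4 reached into the WT range. The log2 fold change of Rps26 was -0.18 (SE 0.08, edgeR adjusted p = 0.463; exact permutation p = 0.0571), and it was -0.12 without WT 2, the highest library.

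Rps21 is a small protein on the solvent side of the subunit (chr2:180257377-180258445, plus strand). WT 1 to 4 had 154, 168, 150 and 140 CPM and Nsun5-KO 1 to 4 had 141, 129, 113 and 144 CPM. Nsun5-KO 1 and 4 lay above WT 4, and Nsun5-KO 3 was the lowest of the 8. Rps21 had a log2 fold change of -0.22 (SE 0.09, edgeR adjusted p = 0.436; exact permutation p = 0.0857).

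Fau and Rps27a are made as fusions of a ubiquitin-like domain or ubiquitin with the ribosomal protein, which is cut free after translation. Fau (chr19:6057888-6059524, plus strand) had 148, 156, 181 and 178 CPM in WT 1 to 4 and 150, 151, 122 and 149 CPM in Nsun5-KO 1 to 4. WT 1 lay below 3 of the libraries labelled Nsun5-KO, and Nsun5-KO 3 stood well under the rest. The log2 fold change of Fau was -0.21 (SE 0.09, edgeR adjusted p = 0.449; exact permutation p = 0.114).

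Rps27a (chr11:29545846-29548109, minus strand) had 62.4, 69.3, 169 and 77.0 CPM in WT 1 to 4 and 66.4, 77.1, 48.6 and 70.7 CPM in Nsun5-KO 1 to 4. WT 3 was far above the other 7 libraries, among which the groups overlapped. Rps27a had a log2 fold change of -0.52 (SE 0.35, edgeR adjusted p = 0.665; exact permutation p = 0.400), and of -0.08 without WT 3.

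Rps15, the member with the highest FPKM (chr10:80292453-80294114, plus strand), had 206, 227, 266 and 272 CPM in WT 1 to 4 and 254, 251, 212 and 249 CPM in Nsun5-KO 1 to 4. The low libraries were WT 1, Nsun5-KO 3 and WT 2, and the groups overlapped. Its log2 fold change was -0.01 (SE 0.10, 95% interval -0.22 to 0.20), with an edgeR adjusted p of 0.985 and an exact permutation p of 1.

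Rps13 is a protein of the subunit whose gene hosts a small nucleolar RNA (chr7:116331505-116334195, minus strand). WT 1 to 4 had 76.9, 56.2, 80.6 and 68.2 CPM and Nsun5-KO 1 to 4 had 81.4, 76.8, 82.1 and 60.6 CPM. The groups overlapped, with WT 2 and Nsun5-KO 4 lowest in their genotypes. Rps13 had a log2 fold change of 0.09 (SE 0.12, edgeR adjusted p = 0.842; exact permutation p = 0.514), which was -0.005 without WT 2.

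Among the members of the messenger RNA channel, Rps2 and Rps3 line the entry and Rps9 lies beside them. Their log2 fold changes were -0.31 (SE 0.19) for Rps2, -0.13 (SE 0.08) for Rps3 and -0.21 (SE 0.10) for Rps9. Without Nsun5-KO 4, which held 122 CPM of Rps2 against 215 to 234 CPM in the other libraries of its label, the Rps2 value was -0.13. Rps14 and Rps28 at the exit side had log2 fold changes of -0.10 (SE 0.08) and -0.20 (SE 0.16). Rps16 and Rps18, which reach toward the transfer RNA sites from the head, had -0.02 (SE 0.13) and -0.54 (SE 0.29). The value of Rps18 was -0.32 without Nsun5-KO 4 and -0.81 without Nsun5-KO 2.

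Rps19, Rps24 and Rps7, which are among the proteins mutated in Diamond-Blackfan anaemia, a failure of red cell formation, had log2 fold changes of -0.12 (SE 0.10), -0.04 (SE 0.08) and -0.04 (SE 0.15). The zinc-binding Rps29 had 0.04 (SE 0.14), and Rps25, known for its role in initiation at viral internal entry sites, had 0.003 (SE 0.07). Rps4x on the X chromosome had -0.07 (SE 0.07), and Rps3a1, Rps15a and Rps20 had -0.12, -0.13 and -0.09. The 95% interval included 0 for each of these members. Leaving out 1 library moved several of them by over 1.5 times, in both directions. Toward 0, Rps14 was -0.04 and Rps3 -0.07 without Nsun5-KO 3. Rps28 was -0.10 and Rps19 -0.06 without WT 3, and Rps20 was -0.03 without WT 4. Away from 0, Rps14 was -0.17 without Nsun5-KO 4. Without WT 1, Rps28 was -0.33, Rps19 -0.21 and Rps20 -0.14. The libraries are from an unstranded kit, so counts of Rps18 cannot be told apart from those of the overlapping gene Vps52 on the other strand, nor counts of Rps25 from Trappc4 or of Rps28 from Kank3, within the shared stretch.

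The members differed between libraries of the same label as well as between labels. Over the 28 members the median log2 ratio to the WT mean was -0.13, -0.004, 0.04 and 0.03 in WT 1 to 4. The same median was -0.12, -0.08, -0.28 and -0.06 in Nsun5-KO 1 to 4. WT 1 thus lay lower than Nsun5-KO 1, and Nsun5-KO 3 was the lowest library for 17 of 28 members. Summed member FPKM was 3104 ± 141 in WT and 2875 ± 210 under the Nsun5-KO label (SD over 4 libraries each), and the ranges, 2895 to 3201 and 2574 to 3056, overlapped.

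**Figure D3:**
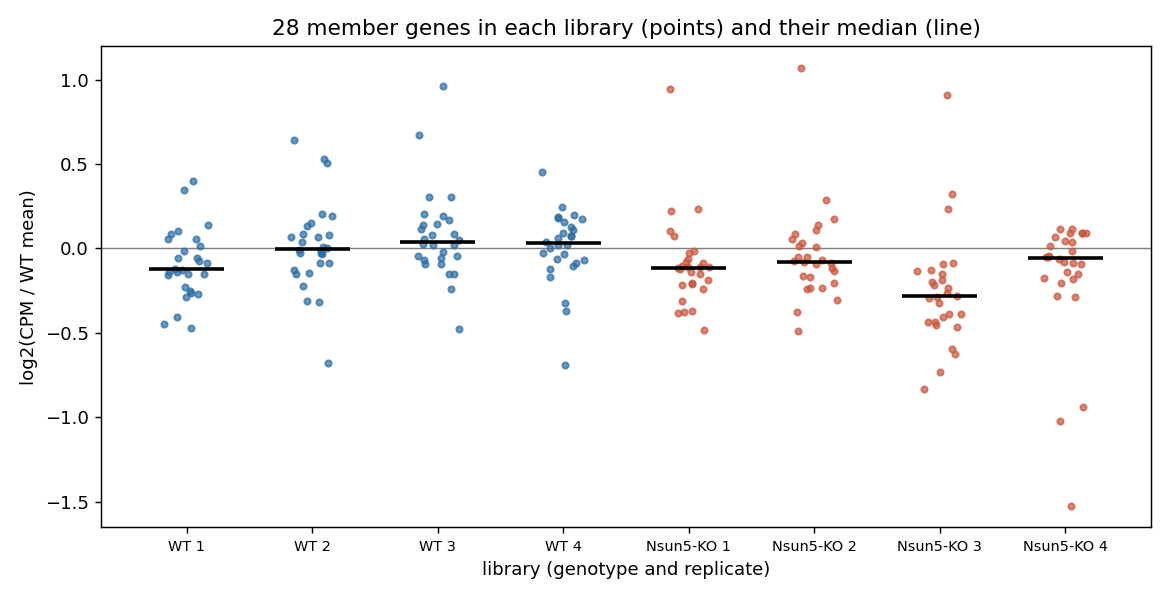
Log2 of CPM over the WT mean for the 28 members (points) in each library, with a black line at the library's median, WT in blue and Nsun5-KO in red. The median is lowest in Nsun5-KO 3 at -0.28, and WT 1 at -0.13 lies near Nsun5-KO 1 at -0.12; the lowest point, -1.52, is in Nsun5-KO 4.

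Large subunit genes were also lowest in Nsun5-KO 3. Medians over 47 large subunit genes were -0.15, 0.004, 0.08 and 0.07 in WT 1 to 4 and -0.07, -0.04, -0.24 and -0.03 in Nsun5-KO 1 to 4. The ratio of summed small to summed large subunit FPKM was 0.593 ± 0.024 in WT and 0.579 ± 0.014 under the Nsun5-KO label (SD over 4 libraries each), with ranges of 0.558 to 0.612 and 0.558 to 0.589. The difference of this ratio was smaller than the spread between WT libraries.

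Counts on near-identical copies bear on how single members read. A row of the count table was taken as a copy where its GENCODE M21 transcript matched a member's open reading frame in sense at 95% identity or more over at least 80% of its length. There were 169 such rows, 121 of them with a count, and 27 of 28 members had at least 1; Rps3 had none. For 8 members more than 10% of the counts of member and copies together lay on the copies: Rps10 (96.8%), Rpsa (64.9%), Rps27 (46.3%), Rps12 (37.8%), Rps28 (30.2%), Rps7 (29.3%), Rps2 (16.4%) and Rps16 (10.5%). Copies may also be transcribed themselves, and that was not tested.

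Rps27, a zinc-finger protein of the subunit (chr3:90212522-90213651, minus strand), shares its whole open reading frame with Rps27rt, a protein-coding gene at chr9:114982366-114982739 (minus strand). The 255 bases are printed because both genes carry this same sequence from the start codon to the stop codon.
Rps27 and Rps27rt: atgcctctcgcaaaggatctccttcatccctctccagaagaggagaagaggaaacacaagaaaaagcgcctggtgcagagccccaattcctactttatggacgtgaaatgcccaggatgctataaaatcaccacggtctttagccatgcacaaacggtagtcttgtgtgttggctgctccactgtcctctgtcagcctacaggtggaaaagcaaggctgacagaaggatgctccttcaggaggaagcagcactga

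Rps27 had 64.1, 119, 72.8 and 61.1 CPM in WT 1 to 4 and 147, 160, 144 and 81.2 CPM in Nsun5-KO 1 to 4. WT 2 lay with Nsun5-KO 4 between the other libraries, and the groups overlapped. Rps27 had the highest log2 fold change of the members, 0.75 (SE 0.29, 95% interval 0.07 to 1.42), with an edgeR adjusted p of 0.449 and an exact permutation p of 0.0571. Rps27rt ran the other way, with 2197, 1525, 2050 and 2421 counts in WT 1 to 4 and 575, 630, 447 and 2255 counts in Nsun5-KO 1 to 4. The sum of Rps27 and its copies was 192, 217, 197 and 198 CPM in WT and 183, 198, 171 and 209 CPM in Nsun5-KO 1 to 4, which overlap. For that sum of Rps27 and its copies the log2 fold change was -0.08, and its SD was 5.53% of the mean in WT and 8.67% under the Nsun5-KO label, against 34.2% and 26.5% for Rps27 alone.

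Rps7 and its copy Gm6472, a transcribed processed pseudogene on the X chromosome (chrX:152909505-152910155, minus strand), differ at 3 of 585 bases, T26G, G48A and G123T, counted from 1 at the A of the start codon with the base of Rps7 first. The lines show bases 8 to 67 with the first and second of these positions in capitals.
Rps7: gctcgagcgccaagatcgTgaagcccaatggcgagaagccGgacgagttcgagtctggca
Gm6472: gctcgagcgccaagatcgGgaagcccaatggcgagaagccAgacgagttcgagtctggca

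Sums here are over Rps7 and all its sequence-matched copies, which also include Gm9493, a protein-coding gene with a mean of 193 counts. Rps7 took 72.4%, 58.2%, 64.2% and 78.2% of the summed CPM in WT 1 to 4. In Nsun5-KO 1 to 4 it took 60.4%, 87.2%, 67.0% and 74.5%. The share of Rps7 thus varied within each label, and the SD of the sum was 4.11% and 7.51% of the mean, against 12.5% and 21.7% for Rps7 alone. The log2 fold change of Rps7 was -0.13 when summed with its copies.

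Rpsa, also known as the laminin receptor (chr9:120127689-120132369, plus strand), differs from the processed pseudogene Rpsa-ps10 (chr3:150072658-150073542, minus strand) at 6 of 885 aligned bases, among them T210C and C219T. Bases 185 to 244 of the open reading frame hold these, in capitals.
Rpsa: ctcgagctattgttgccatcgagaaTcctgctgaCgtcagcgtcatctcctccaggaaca
Rpsa-ps10: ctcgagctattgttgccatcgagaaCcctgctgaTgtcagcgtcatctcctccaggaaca

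Rpsa alone had 227, 249, 146 and 107 CPM in WT 1 to 4 and 133, 122, 131 and 183 CPM in Nsun5-KO 1 to 4, so WT 1 and WT 2 were the high libraries. Rpsa-ps10 held 4818 to 5760 counts in WT, and from 4293 to 5639 under the Nsun5-KO label. Rpsa had a log2 fold change of -0.35 (SE 0.28), which was 0.17 without WT 1 and WT 2 and -0.17 when summed with its copies. Rps12, whose open reading frame of 399 bases is identical in Rps12-ps3 on chromosome 19, showed the same high libraries, with 96.2, 108, 54.4 and 58.5 CPM in WT 1 to 4 and 64.1, 58.5, 45.7 and 72.7 CPM in Nsun5-KO 1 to 4. Its log2 fold change was -0.39 (SE 0.25), 0.09 without WT 1 and WT 2, and -0.18 when summed with its copies.

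Rps10, which lies at the beak of the subunit (chr17:27630418-27636669, minus strand), had 1.28, 1.09, 2.78 and 2.38 CPM in WT 1 to 4 and 1.51, 1.65, 2.18 and 0.908 CPM in Nsun5-KO 1 to 4. The groups overlapped, and the log2 fold change of Rps10 was -0.28 (SE 0.37, edgeR adjusted p = 0.842; exact permutation p = 0.543). That value was -0.03 without WT 3 and -0.48 without Nsun5-KO 3. Its pseudogene Rps10-ps2 (chr16:20822145-20822640, minus strand), which differs from it at 5 of 496 aligned bases, held a mean of 795 counts. The sum of Rps10 and its copies was 50.9 to 55.8 CPM in the 8 libraries, with an SD of 2.82% of the mean in WT and 2.94% in the libraries labelled Nsun5-KO, and its log2 fold change was -0.04. The low listed level of Rps10 was thus that of a row whose copies held 96.8% of the joint counts. Rps10 also overlaps, on the same strand, the protein-coding gene RPS10-NUDT3 (chr17:27580780-27635222, minus strand). That gene, included among the copies, matched 456 of the 498 bases of the open reading frame at 100% identity and held 0 to 1 counts. The part of this overlap in the low level of Rps10 was not tested.

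**Figure D4:**
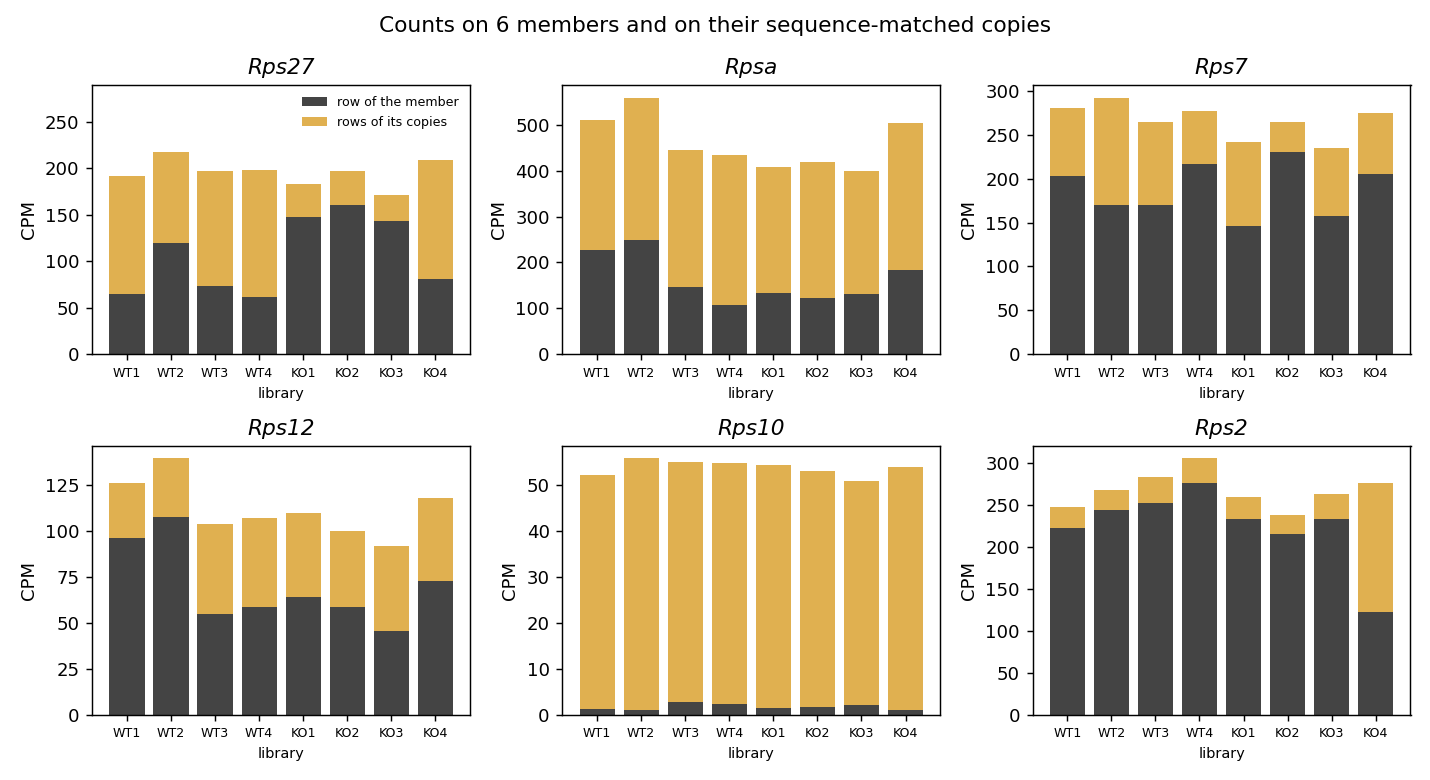
CPM on the member's own row (dark) and on the rows of its sequence-matched copies (yellow) in each library (WT1 to WT4 and KO1 to KO4, the libraries labelled Nsun5-KO) for Rps27, Rpsa, Rps7, Rps12, Rps10 and Rps2. The dark part of Rps27 is larger in Nsun5-KO 1 to 3 while the full bars of Rps27 stay between 171 and 217 CPM.

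With every member summed with its copies, 25 of 28 were below WT (51.4% of all genes) and the median log2 fold change was again -0.13, with a range of -0.46 to 0.10. At an unadjusted edgeR p below 0.05, 5 were lower (background 5.08%) and none was called (smallest edgeR adjusted p = 0.31). Of the 20 members with at most 10% of counts on copies, 17 were below WT with a median of -0.13. Summing lowered the SD in percent of the mean for 13 of 28 members in WT and for 21 under the Nsun5-KO label. It did not for Rps2 in WT (8.83% alone, 8.92% summed) or Rps16 in WT (19.82% and 19.84%). Rps28 had 15.5% alone and 15.9% summed under the Nsun5-KO label. Rps2 showed how a single library can carry a member's value: its copy Rps2-ps10 held 1848 counts in Nsun5-KO 4 and 11 to 23 in the other 7 libraries, and summed with its copies Rps2 had 277 CPM there, within the WT range of 247 to 305, and its log2 fold change was -0.09. After summing, Rps18 had 128, 164, 124 and 82.8 CPM in Nsun5-KO 1 to 4, against 144 to 171 in WT. The summed log2 fold change of Rps18 was -0.37.

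Other genes of translation, taken as lists, differed in direction and extent. Over all genes tested 51.4% were below WT, and 5.05% were lower and 5.3% higher at an unadjusted edgeR p below 0.05. Of 47 large subunit genes 36 had lower values than WT (median log2 fold change -0.10), and 10 were lower and 1 higher at an unadjusted edgeR p below 0.05. The 3 with the smallest p were Rpl10 (-0.34), Rpl17 (-0.42) and Rpl7a (0.50). In a chosen list of 13 other messenger RNAs known to carry a TOP tract, 13 were below WT and the median was -0.11, with 3 lower at an unadjusted edgeR p below 0.05; these were Eef1a1 (-0.26), Eef1b2 (-0.21) and Eif4b (-0.14), which serve elongation and initiation.

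Initiation factors, assembly factors, mitochondrial small subunit proteins and genes of mTOR, S6 kinase and LARP1 signalling were each divided in direction. Of 26 initiation factors that bind the subunit 16 were below WT (median -0.01, against 51.4% of all genes below WT and a median of -0.005), with Eif1ax at 0.18, Eif3k at -0.18 and Eif3f at -0.16. Of 35 tested assembly factors 16 were below WT (median 0.04), with Tsr2 at -0.19, Krr1 at 0.22 and Bysl at 0.20. Of 30 small subunit proteins of the mitochondrial ribosome 17 were below WT (median -0.02); the 3 with the smallest p were Mrps2 (-0.16), Mrps16 (-0.18) and, above WT, Mrps5 (0.09). Of 19 genes of mTOR, S6 kinase and LARP1 signalling 8 were below WT (median 0.04), with Rptor at 0.13, Rps6kb1 at 0.13 and Rps6ka3 at 0.18. At an unadjusted edgeR p below 0.05, 3 initiation factors were lower and 1 was higher. For assembly factors these counts were 1 and 4, and for the mitochondrial and signalling lists they were 0 and 0. The background over all genes was 5.05% lower and 5.3% higher. None of the genes in these lists was called by edgeR, and differences between the lists were not tested.

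Within the gene bounds of 8 members, on the same strand, the count table lists 14 small nucleolar RNA genes, which guide modification of ribosomal RNA and other RNAs. They held 0 to 4 counts in any library, too few to compare.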

How the data were processed

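Brain RNA was sequenced as 8 libraries made with the NEBNext Ultra kit, which does not mark strand (kit per the labels' protocols). The deposited gene counts and the deposited FPKM are the authors' own values; reads were aligned with HISAT2 2.0.5 to mm10, per the submitters' processing notes, and the sources used here do not give the read counter or annotation. The members and lists were chosen with earlier results of these data known. Counts were fitted over all 16062 genes that passed filterByExpr with edgeR 4.0.16 (R 4.3.3; TMM scaling, quasi-likelihood F test, Benjamini-Hochberg adjustment, called at an adjusted p below 0.05), WT against Nsun5-KO with no covariate. CPM values are TMM-scaled. Members described in full were the 6 with the smallest p, those whose groups did not overlap, the 2 with the highest fold change, the highest and lowest FPKM, Rps27a and Fau; of other lists, the 3 with the smallest p (the list of other small subunit genes is not reported here); Rpsa, Rps2, Rps7, Rps12 and Rps18 were described after their values were seen. The fit was tested on counts simulated gene by gene from its own means and dispersions. Differences that many genes of a library share were not simulated. Alternatives used DESeq2 1.42.0, limma 3.58.1, other scalings and filters, and left-out libraries; summing sequence-matched copies (BLAST 2.17.0) was chosen after seeing the data. Coordinates of genes are those of the count table; 26 of 28 members have the same ones in GENCODE M21. No pair of libraries of the same genotype agreed within sampling noise (chi-square per degree of freedom 7.22 to 20.4).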

Additional observations from a re-analysis of the deposited data

Results flagged for a closer look

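Within 62 groups of 4 libraries (each member in each genotype, with summary values), 5 held 1 library far from the other 3. Chance gives about 1 in 20 for independent groups, but these groups share the same 8 libraries. Rps2 had 121.8 CPM in Nsun5-KO 4, against 214.8 to 233.6 in the other libraries of that label. Its copy Rps2-ps10 held 1848 counts in that library, and Rps2 summed with its copies had 277 CPM there, within the WT range of 247 to 305. Rps27a had 168.7 CPM in WT 3, against 62.4 to 77.0 in the other WT libraries. Nsun5-KO 3 was the low library for the other 3: Rps15 at 211.7 CPM (others 248.8 to 253.7), Rps19 at 110.4 CPM (others 128.1 to 129.9) and Fau at 122.3 CPM (others 148.8 to 150.6). What set these libraries apart was not tested.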

How the results depend on the processing

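Across 23 alternative settings the 28 members gave 644 fold changes, of which 606 kept their direction and side of the threshold, 37 (in 10 members) reversed and 1 passed the threshold (Rps6 with DESeq2). The members called were 0 in every setting but DESeq2, with 1, and the genes called over all genes were 97 with DESeq2, 68 with edgeR without the low-count filter and 0 to 2 when 1 library was left out (2 without Nsun5-KO 4). Leaving out 1 library at a time gave 20 to 26 members below WT and medians of -0.19 to -0.09. The replicate numbers did not pair the libraries (same-number correlations -0.115, -0.213, -0.041 and 0.063, and no library correlated best with its own number); with a replicate block 24 members were below WT, the median was -0.13 and no member was called.

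Reversed log2 values were as follows. Rps25, near 0, was -0.0025 with limma voom, -0.0024 with TMM factors computed without ribosomal protein and mitochondrial genes, -0.020 with upper quartile scaling and -0.022 with library size alone. On log2 FPKM with a pseudocount of 1 or 0.1, Rps15 was 0.0015 or 0.0016 and Rps16 0.0022 or 0.0024. Summed with sequence-matched copies Rps27 was -0.079. Without WT 1 and WT 2, Rpsa was 0.17, Rps12 0.091, Rps24 0.0064, Rps25 -0.018 and Rps29 -0.054. Without Nsun5-KO 1 and 3, Rps7 was 0.20, Rps13 -0.038, Rps15 0.0406, Rps16 0.0407 and Rps24 0.039. Leaving out 1 library gave ranges of -0.17 to 0.057 for Rps7, -0.0045 to 0.18 for Rps13, -0.083 to 0.050 for Rps15, -0.10 to 0.092 for Rps16, -0.075 to 0.0091 for Rps24, -0.031 to 0.034 for Rps25 and -0.035 to 0.17 for Rps29. The cause was not tested.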
